A study of Mus musculus with 11 samples.

Results

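The SOCS family (suppressors of cytokine signalling) was examined through its 8 genes Socs1 to Socs7 and Cish, taken by gene symbol from 18193 genes measured on 11 Affymetrix arrays. These 8 genes had 24 of the 34945 probe sets with 1 gene symbol, and each gene was read from its brightest probe set (highest mean of the 11 arrays). All arrays held RNA of CD4 T cells from spleen and lymph node of mice aged 6 to 8 weeks, isolated with CD4 beads and then sorted on GFP. GFPKO arrays (n = 3) came from GFP-positive cells of mice with 1 Foxp3 allele knocked out by GFP and 1 wild-type allele (Foxp3GFPKO/WT). That genotype is of the mice, and the sort on GFP took cells that express the knocked-out allele. Treg arrays (n = 5) came from Foxp3-positive cells and TN arrays (n = 3) from naive Foxp3-negative cells. Values are on the log2 scale of RMA, which makes 1 background-corrected and quantile-normalised value per probe set, and they can be compared between arrays for a probe set but not between probe sets.

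SOCS proteins act as a feedback brake on cytokine receptors. A cytokine activates JAK kinases bound to its receptor, the kinases activate STAT transcription factors, and STAT factors then induce SOCS genes. The SOCS proteins in turn block the receptor or the kinase through an SH2 domain and, through the SOCS box, recruit elongins and a cullin to mark the complex for degradation. Regulatory T cells, which depend on the transcription factor Foxp3, carry the high-affinity interleukin 2 receptor and signal through STAT5, and Cish is a textbook target of STAT5.

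Promoter sequences are shown for the members whose windows carried the STAT motif and, for contrast, for a member that differed between groups with no match. RefSeq windows (GRCm38.p6) of 250 bases before and 50 bases after the gene start were at hand for 4 of the 8 members, namely Cish, Socs1, Socs3 and Socs4. Capitals mark the palindromic STAT motif TTCNNNGAA.
Cish, chr9:107296409-107296708, plus strand: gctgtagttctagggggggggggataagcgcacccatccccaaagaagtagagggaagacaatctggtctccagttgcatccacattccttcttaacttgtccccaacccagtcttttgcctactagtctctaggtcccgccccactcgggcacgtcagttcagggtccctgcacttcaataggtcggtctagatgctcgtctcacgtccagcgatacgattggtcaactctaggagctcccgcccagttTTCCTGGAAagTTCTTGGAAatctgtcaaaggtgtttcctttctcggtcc
Socs3, chr11:117969317-117969616, minus strand: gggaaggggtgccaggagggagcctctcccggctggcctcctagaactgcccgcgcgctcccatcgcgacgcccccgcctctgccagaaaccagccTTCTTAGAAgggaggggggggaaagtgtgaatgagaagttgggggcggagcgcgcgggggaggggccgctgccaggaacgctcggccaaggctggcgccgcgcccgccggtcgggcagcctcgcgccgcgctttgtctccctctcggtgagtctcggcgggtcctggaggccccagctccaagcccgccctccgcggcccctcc
Socs1, chr16:10785487-10785786, minus strand: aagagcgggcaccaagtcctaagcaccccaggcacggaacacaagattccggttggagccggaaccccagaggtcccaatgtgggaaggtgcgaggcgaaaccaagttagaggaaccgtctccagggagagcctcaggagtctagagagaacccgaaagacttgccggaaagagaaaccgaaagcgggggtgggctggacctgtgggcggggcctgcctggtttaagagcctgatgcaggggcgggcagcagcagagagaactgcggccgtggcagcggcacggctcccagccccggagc
The Cish window held 2 matches, TTCCTGGAA at bases 1 to 9 and TTCTTGGAA at bases 12 to 20 after the start. The Socs3 window held 1 match at bases -154 to -146 and the Socs1 and Socs4 windows none. Of 32851 RefSeq windows of the same length, 8.3% held at least 1 match and 0.457% held 2 or more. The wider form preferred by STAT6, TTC and GAA with any 4 bases between them, was searched too and was in none of the 4 member windows, against 6.95% of all windows. The forkhead motif TGTTTAC, searched on both strands, was likewise in none of the 4, against 3.65% of all windows. A match describes the letters of a window and does not show binding.

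The arrays were first checked against their labels. The CD4 T cell markers Cd3e, Cd3d, Cd3g, Cd4, Cd5 and Cd28 were far above the array background of 3.99, with a mean over the 6 genes of 11.09 to 11.22 on GFPKO arrays, 10.90 to 10.94 on Treg arrays and 11.01 to 11.08 on TN arrays. That background is the highest Foxp3 value on a TN array, and it lies above every Y-linked value on the GFPKO arrays. Foxp3 read 6.75 to 7.19 on GFPKO arrays, 3.29 to 3.64 on Treg arrays and 3.12 to 3.99 on TN arrays. The low Foxp3 reading goes against the Treg label, and where its probe set lies relative to the altered alleles is not known here, so "Treg" below means the arrays labelled Treg. For the same reason the higher reading on GFPKO arrays does not show a working Foxp3 copy in those cells. Other Treg markers followed the label against TN, as Il2ra, Ctla4, Ikzf2 and Tnfrsf18 were higher in Treg than in TN (log2 fold changes 5.62, 4.35, 4.07 and 2.15). The same 4 genes were also called higher in GFPKO, with means of 8.41, 9.66, 10.41 and 11.04, against 3.56, 5.81, 6.60 and 9.85 in TN. They thus set both groups apart from TN. Xist read at least 11.07 on every GFPKO array and at most 3.96 on every other array, so sex and genotype cannot be told apart in comparisons with GFPKO. Correlations between arrays within a group were 0.979 to 0.990 in GFPKO, 0.990 to 0.997 in Treg and 0.994 to 0.995 in TN. The actin control's 3′ minus 5′ signal, a sign of RNA integrity, was 0.77, 0.83 and 0.45 on GFPKO replicates 1, 2 and 3, against 0.44 to 0.61 in Treg and 0.38 to 0.53 in TN. Nothing in the labels tells whether replicate arrays stem from different animals. The p-values therefore rest on variation among the arrays alone, part of which may be technical. In such bulk samples a smaller share of cells of a type cannot be told apart from less RNA per cell.

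The family split into genes with a large difference from naive cells and genes with little or none. Cish and Socs2 were far higher in both GFPKO and Treg than in TN, Socs1 and Socs5 were higher in Treg than in TN, and Socs3, Socs4, Socs6 and Socs7 were not called in any comparison. A gene was called at a Benjamini-Hochberg adjusted p under 0.05 over all genes in limma. For Treg minus TN 4 of 8 members were called, each higher, against 9.97% of all genes called (6.54% higher and 3.42% lower). For GFPKO minus TN 2 of 8 were called, each higher, against 5.66% of all genes called (2.64% higher and 3.02% lower). For GFPKO minus Treg 3 of 8 were called, each lower, against 9.43% of all genes called (6.88% lower and 2.55% higher). Here and below, shares of all genes count dim genes too, as only 11758 of the 18193 had a group mean above background. Without dim genes, the fit called 1820 genes between Treg and TN, 1091 between GFPKO and TN and 1786 between GFPKO and Treg. The printed shares are thus lower than the shares among genes above background, where all 8 members lie. The median log2 fold change over the 8 members was 0.72 for Treg minus TN, beside 0.03 over all genes. It was 0.33 in the comparison of GFPKO with TN, beside -0.04, and -0.30 in that of GFPKO with Treg, beside -0.08. The 3 comparisons share their arrays in pairs, so their values are not independent of each other.

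**Figure D1:**
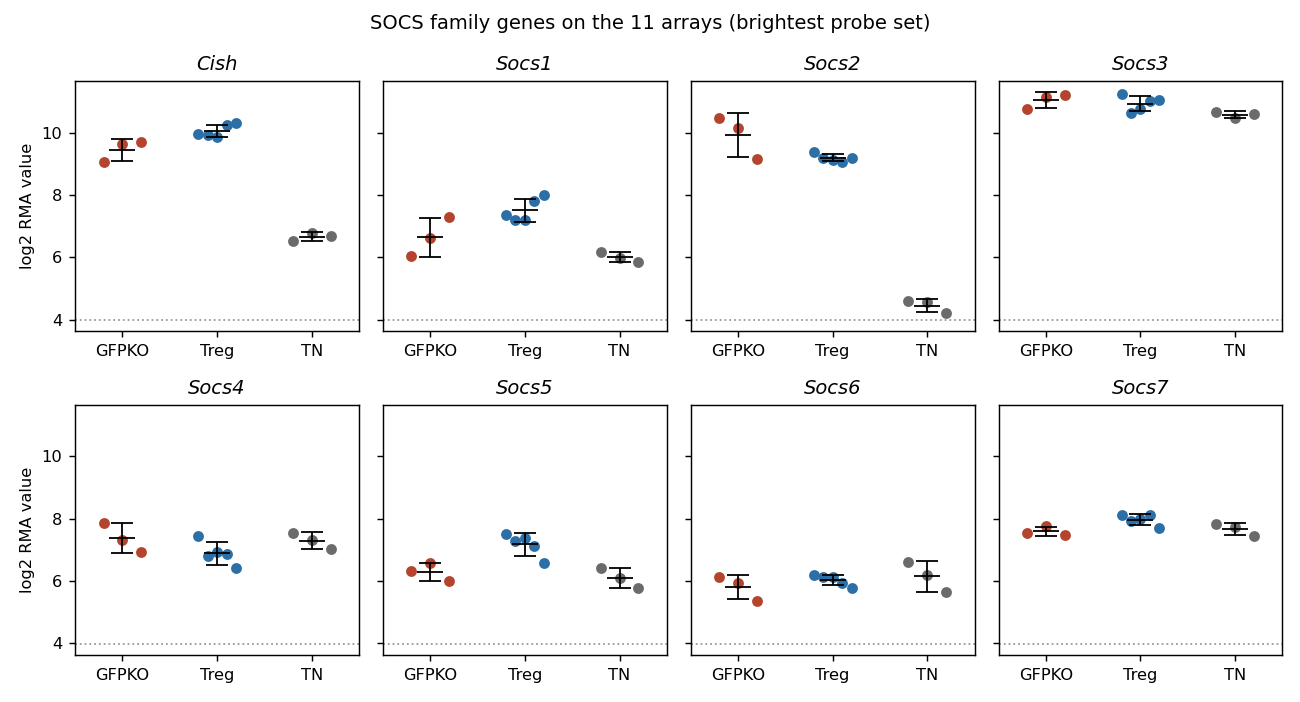
Log2 RMA value (y axis) of each of the 8 genes on each array (points), by group (x axis), with group mean and SD in black and the background of 3.99 dotted; levels of different genes come from different probe sets and are not comparable. Cish and Socs2 read 9.05 or more on all GFPKO and Treg arrays and 6.79 or less on TN arrays.

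Cish encodes CIS, the founding member of the family, which competes with STAT5 for docking sites on cytokine receptors. Its only probe set read 9.05, 9.62 and 9.69 on the GFPKO arrays, 9.96, 9.92, 9.87, 10.23 and 10.31 on the Treg arrays, and 6.51, 6.79 and 6.69 on the TN arrays. No 2 groups overlapped, with Treg highest, GFPKO next and TN lowest. Of all genes, 19.5% did not overlap between Treg and TN (11.7% higher and 7.84% lower in Treg), 18% between GFPKO and TN (7.06% higher and 11% lower in GFPKO) and 14.4% between GFPKO and Treg (3.31% higher and 11.1% lower in GFPKO). Cish was 10.5-fold higher in Treg than in TN (log2 fold change 3.39 ± 0.16 SE, limma adjusted p = 1.3e-09) and 6.90-fold above TN in GFPKO (2.79 ± 0.18, adjusted p = 1.02e-07). By size these stood 24th and 30th from the top of 18193 genes. Between GFPKO and Treg the difference was -0.61 ± 0.16 (adjusted p = 0.0272), with a 95% interval of -0.95 to -0.26. This smaller difference was not called without GFPKO replicate 1 (-0.40, adjusted p = 0.141), without Treg replicate 4 or 5 (adjusted p = 0.0677 and 0.0655), in a fit of only these 2 groups (adjusted p = 0.0528) or with the actin signal as a covariate (-0.56, adjusted p = 0.154).

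Socs2 encodes a suppressor best known for restraining growth hormone signalling in mice. Its brightest probe set read 10.47, 10.16 and 9.14 on the GFPKO arrays, 9.37, 9.19, 9.13, 9.06 and 9.19 on the Treg arrays, and 4.59, 4.55 and 4.20 on the TN arrays. TN lay more than 4 log2 units below every other array, and GFPKO replicate 3 lay within the range of Treg. Socs2 in GFPKO exceeded TN 44.6-fold (5.48 ± 0.25 SE on the log2 scale, limma adjusted p = 2.5e-09) and in Treg exceeded TN 26.7-fold (4.74 ± 0.22, adjusted p = 1.3e-09). Both folds rest on TN values close to the background of 3.99, so their size is uncertain. Only 1 gene increased more in GFPKO over TN, namely Xist (7.56), which marks the sex difference given above. In Treg over TN 2 genes increased more than Socs2. GFPKO minus Treg was 0.74 ± 0.22 and missed the threshold (adjusted p = 0.0533, 95% interval 0.26 to 1.22). Leaving out a GFPKO array gave 0.46 without replicate 1 (adjusted p = 0.257), 0.62 without replicate 2 (adjusted p = 0.208) and 1.13, which was called, without replicate 3 (adjusted p = 0.000175). With all arrays it was also called when dim genes were left out (adjusted p = 0.047) or with a trended robust variance model (adjusted p = 0.043). GFPKO replicates 1 and 2, which read above every Treg array for Socs2, also had the 2 highest actin 3′ minus 5′ signals of the 11 arrays (0.77 and 0.83), and the part of RNA integrity in the result was not tested beyond the covariate fit, which gave 0.39 (adjusted p = 0.445).

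The 6 Socs2 probe sets did not respond alike. The second brightest, built like the first on the RefSeq transcript, read 9.22, 9.09 and 7.98 on GFPKO arrays, 8.52, 8.04, 8.06, 7.93 and 8.03 on Treg arrays, and 2.95, 2.64 and 2.94 on TN arrays. Its log2 fold changes over TN, 5.91 in GFPKO and 5.27 in Treg, depend on TN values below background, and both were called in a fit over all probe sets (adjusted p = 7.02e-09 and 2.55e-09). The other 4 probe sets were designed on expressed sequence tags, and no group mean of theirs exceeded 4.43. Among these, 1 was called higher in GFPKO than in TN (1.31, adjusted p = 0.00649), with means of 4.21 in GFPKO and 2.89 in TN, where it was below background. Another had all 3 group means below background, so no difference is given for it although it passed the test in both comparisons with TN. Averaged over all 6 probe sets, the Socs2 differences from TN were 2.44 in GFPKO and 2.06 in Treg, so the size rests on which probe sets are read.

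Socs1 encodes an inhibitor that binds JAK kinases directly and restrains interferon and interleukin 2 signalling, and regulatory T cells of mice that lack it lose their identity under inflammation. Its only probe set read 6.03, 6.61 and 7.28 on the GFPKO arrays, 7.34, 7.20, 7.19, 7.79 and 7.99 on the Treg arrays, and 6.17, 5.99 and 5.86 on the TN arrays. Treg lay above TN without overlap, while GFPKO ran from the TN range (replicate 1) to the Treg range (replicate 3). Socs1 was 2.82-fold higher in Treg than in TN (log2 fold change 1.49 ± 0.24 SE, limma adjusted p = 0.000578). GFPKO minus TN was 0.63 ± 0.27 (adjusted p = 0.248, 95% interval 0.05 to 1.22), and it was called without GFPKO replicate 1 (0.94, adjusted p = 0.0362) and was 0.31 without GFPKO replicate 3 (adjusted p = 0.49). GFPKO minus Treg was -0.86 ± 0.24 (adjusted p = 0.0384). That call was lost in 10 of 20 alternative fits, among them those without GFPKO replicate 1 (-0.56, adjusted p = 0.196) and with the actin covariate (-0.57, adjusted p = 0.326). It was also lost without GFPKO replicate 2 (adjusted p = 0.119), without Treg replicate 4 or 5 (adjusted p = 0.091 and 0.0876), without TN replicate 1, 2 or 3 (adjusted p = 0.0511, 0.0549 and 0.051) and in a fit of only GFPKO and Treg (adjusted p = 0.0738). In this comparison replicate 3, the GFPKO array highest in Socs1 and lowest in Socs2, was the one with an actin signal inside the range of the Treg arrays (0.45).

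Socs5 encodes a suppressor reported to act on interleukin 4 and epidermal growth factor receptors. Its brighter probe set read 6.31, 6.56 and 5.99 on the GFPKO arrays, 7.51, 7.29, 7.39, 7.13 and 6.56 on the Treg arrays, and 6.42, 6.09 and 5.76 on the TN arrays. GFPKO and TN overlapped, and Treg lay above TN in every array, with Treg replicate 5 level with the highest GFPKO array. Socs5 was 2.12-fold higher in Treg than in TN (log2 fold change 1.09 ± 0.21 SE, limma adjusted p = 0.0024). It was lower in GFPKO than in Treg (-0.89 ± 0.21, adjusted p = 0.0143), and it stayed called in all 20 alternative fits for both comparisons. Several of these fits could not change the fold change, such as those without an array of the group not compared. GFPKO minus TN was 0.20 ± 0.23 (adjusted p = 0.78). The other Socs5 probe set read 5.67, 5.03 and 5.08 in GFPKO, 6.15, 6.59, 6.50, 5.96 and 6.04 in Treg, and 5.67, 5.81 and 5.48 in TN. It was called for GFPKO minus Treg (-0.99, adjusted p = 0.00408) and missed the threshold for Treg minus TN (0.59, adjusted p = 0.0635).

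**Figure D2:**
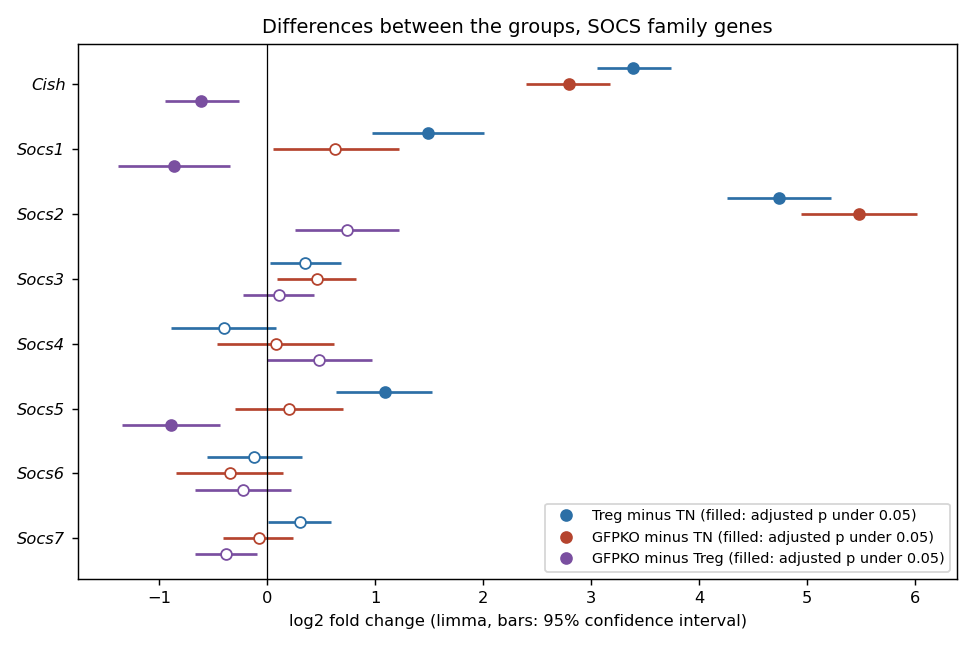
Log2 fold change with its 95% confidence interval (x axis) of the 8 genes (y axis) in the 3 comparisons, filled where the adjusted p was under 0.05. Socs2 and Cish stand apart from zero in both comparisons with TN, at 2.79 to 5.48, while Socs1, Socs5 and Cish are called lower in GFPKO than in Treg.

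Socs3 encodes the suppressor of gp130 receptors, which carry interleukin 6 signals to STAT3. Its brightest probe set read 10.75, 11.14 and 11.22 on GFPKO arrays, 11.23, 10.64, 10.74, 11.02 and 11.03 on Treg arrays, and 10.67, 10.46 and 10.60 on TN arrays. GFPKO lay just above TN in every array, and Treg overlapped both. GFPKO minus TN was 0.46 ± 0.17 (limma adjusted p = 0.162, 95% interval 0.09 to 0.82), and Treg minus TN 0.35 ± 0.15 (adjusted p = 0.205, 0.03 to 0.68). GFPKO minus Treg was 0.11 ± 0.15 (adjusted p = 0.737, -0.22 to 0.43). The suffix x of this probe set marks probes that can also match other transcripts. The 2 other Socs3 probe sets differed from TN by 0.31 and 0.32 in GFPKO and by 0.29 and 0.30 in Treg, none of them called. Thus all 3 probe sets put Socs3 slightly higher in GFPKO and Treg than in TN by amounts that did not pass the test.

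Socs4, Socs6 and Socs7 encode less studied members, tied mainly to growth factor and insulin receptors. Socs4 read 7.87, 7.31 and 6.93 in GFPKO, 7.45, 6.79, 6.93, 6.87 and 6.40 in Treg, and 7.55, 7.31 and 7.01 in TN. The 3 groups overlapped, with log2 fold changes of 0.48 for GFPKO minus Treg (limma adjusted p = 0.218), 0.08 in GFPKO over TN and -0.40 in Treg over TN. Socs6 read 6.13, 5.92 and 5.36 in GFPKO, 6.20, 6.12, 6.11, 5.94 and 5.78 in Treg, and 6.62, 6.20 and 5.63 in TN. Its differences ran from -0.34 (GFPKO minus TN, 95% interval -0.84 to 0.15) to -0.12 (Treg minus TN), all with overlap between groups. The 2 dimmer Socs6 probe sets had the opposite sign in GFPKO over TN (0.25 and 0.30) and in GFPKO over Treg (0.53 and 0.23), with group means at or near background. Socs7 read 7.54, 7.75 and 7.48 in GFPKO, 8.12, 7.91, 7.98, 8.12 and 7.71 in Treg, and 7.83, 7.74 and 7.45 in TN. Treg was highest for Socs7, but neither GFPKO minus Treg (-0.38 ± 0.13, adjusted p = 0.0964) nor Treg minus TN (0.30 ± 0.13, adjusted p = 0.232) was called. None of the further probe sets of these 3 genes was called in any comparison, and for Socs4 they gave Treg minus TN differences of -0.01, 0.37 and 0.23 beside -0.40 for the brightest, so the sign for Socs4 depends on the probe set.

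**Figure D3:**
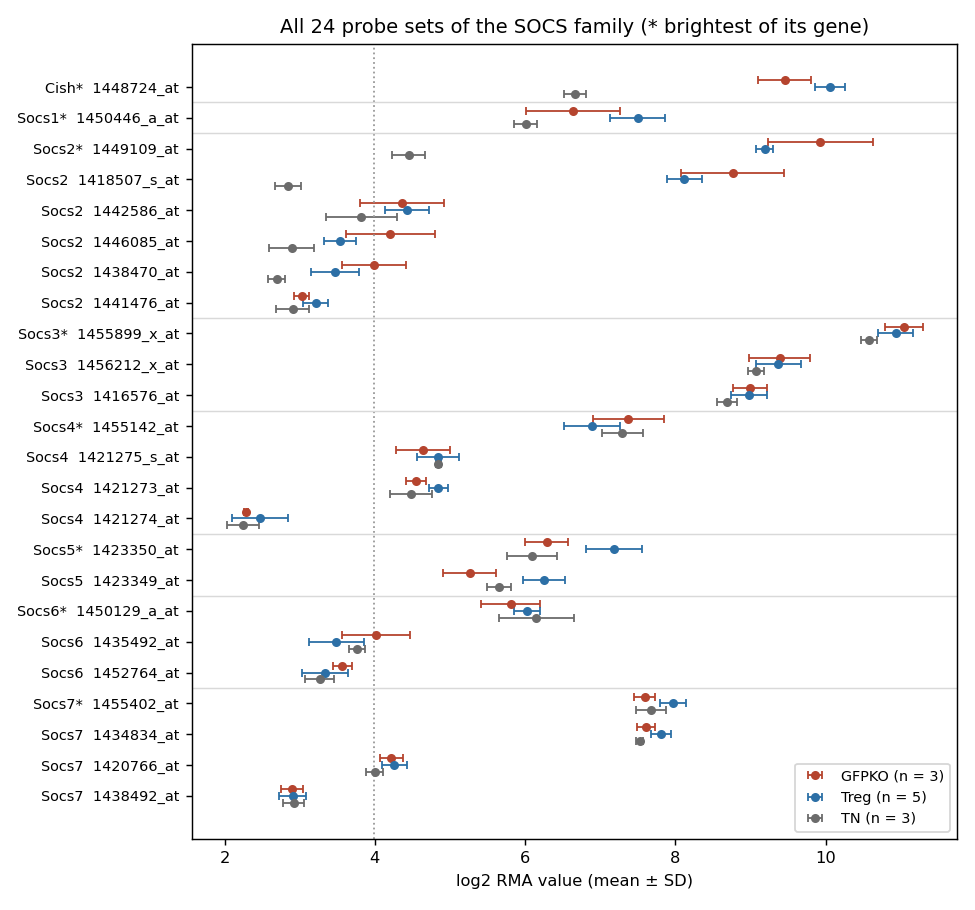
Mean ± SD of the log2 RMA value (x axis) in GFPKO, Treg and TN for each of the 24 probe sets (y axis, brightest of each gene starred), with the background of 3.99 dotted. Of the 24 probe sets, 19 exceed the background in at least 1 group, and the 2 brightest Socs2 probe sets and the Cish probe set show the wide gap to TN.

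Over the 24 probe sets, 6 were called between Treg and TN, against 7.99% of all 34945 probe sets. Between GFPKO and TN 5 were called, against 4.07%, and between GFPKO and Treg 4, against 8.60%. Of these calls Socs2 held 3 for Treg minus TN and 4 for GFPKO minus TN, and Socs5 held 2 for GFPKO minus Treg. In both comparisons with TN, 1 of the called Socs2 probe sets had all its group means below background. Probe sets of 1 gene are repeat readings, so these counts are not counts of genes. The order of the groups differed between the called genes. For Socs2 the order was GFPKO, Treg, TN, with GFPKO and Treg not told apart by the main test. For Cish it was Treg, GFPKO, TN, with each neighbouring pair called. For Socs1 and the brighter Socs5 probe set it was Treg, GFPKO, TN, with GFPKO and TN not told apart. The other Socs5 probe set had GFPKO lowest (mean 5.26, against 5.65 in TN), and that difference was not called either (-0.39, adjusted p = 0.407).

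Genes of like pattern were found by the smallest root mean square difference between log2 values centred on their mean over the 11 arrays, among 11757 genes above background in some group. For Cish the nearest was D630039A03Rik, at 0.207 log2 units, beside a spread of Cish about its own mean of 1.45. Ptger2, which encodes a prostaglandin E2 receptor, followed at 0.261, and Il2rb, the beta chain of the interleukin 2 receptor, at 0.303. For Socs2 the nearest were Rgs1 (0.514), a regulator of G protein signalling, Prg4 (0.618), which encodes lubricin, and Coro2a (0.635), beside a spread of 2.28. Of these, Prg4 had its highest group mean in GFPKO (9.59, against 8.59 in Treg and 5.25 in TN), while Rgs1 and Coro2a had theirs in Treg. For Socs1 the nearest were Nsmf (0.182), H2-Oa (0.197) and Rilpl2 (0.198), beside a spread of 0.723. For Socs5 they were Vwa5a (0.163), Mgat5 (0.168) and Tmem237 (0.185), beside 0.577. For Socs1 and Socs5 all 3 neighbours of each were highest in Treg, with GFPKO minus Treg between -0.95 and -0.81. The neighbours were chosen for likeness over these same 11 arrays, so their group order follows from the choice and is no separate evidence.

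**Figure D4:**
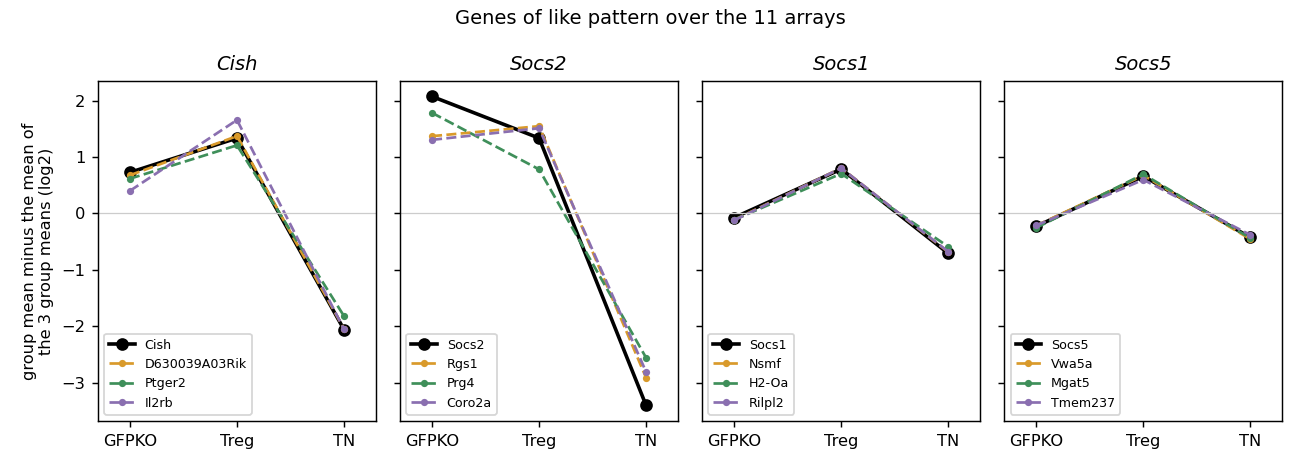
Group means (log2, y axis, minus the mean of the 3 group means) in GFPKO, Treg and TN (x axis) of the 4 called members (black) and the 3 genes of closest pattern to each (dashed). The lines for Cish, Socs1 and Socs5 peak in Treg, and that for Socs2 peaks in GFPKO.

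The genes around the family were read from a list of 49 JAK-STAT genes, of which 46 were measured here. The other 3 were not analysed here. In Treg 11 were called higher and 2 lower than in TN, with a median log2 fold change of 0.07, against 6.54% higher, 3.42% lower and a median of 0.03 over all genes. In GFPKO 4 were called higher and 2 lower than in TN (median 0.07), against 2.64% and 3.02% of all genes (median -0.04). Set against Treg, GFPKO had 2 called higher and 7 lower (median -0.04), against 2.55% and 6.88% of all genes (median -0.08). These shares again count dim genes, and whether the list exceeds genes above background was not tested. Cytokine receptors held most of the calls.

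Among the 17 measured receptors 8 were higher and 2 lower in Treg than in TN. Il2ra, which encodes CD25 and raises the receptor's affinity for interleukin 2, read 8.57, 8.47 and 8.19 in GFPKO, 9.28, 9.21, 9.25, 9.19 and 8.97 in Treg, and 3.70, 3.82 and 3.16 in TN. It was thus at background in TN and lower in GFPKO than in Treg (-0.77 ± 0.15, limma adjusted p = 0.00507). Il2rb read 9.02, 9.77 and 9.72 in GFPKO, 10.63, 10.84, 10.62, 10.78 and 10.91 in Treg, and 6.93, 7.39 and 6.82 in TN, so the group order was that of Cish and no 2 groups overlapped. Il12rb1, a chain of the interleukin 12 receptor, was higher in Treg (2.22) and GFPKO (1.30) than in TN. Il10ra, the interleukin 10 receptor chain, was higher in Treg than in TN (1.54) and lower in GFPKO than in Treg (-1.47, adjusted p = 0.000541), with GFPKO minus TN at 0.07 (adjusted p = 0.948). Il7r, the interleukin 7 receptor chain, went the other way and was lower in Treg (-2.08) and GFPKO (-1.62) than in TN. All 7 receptors called for GFPKO minus Treg were lower in GFPKO.

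Kinases, STAT factors and the ubiquitin ligase partners of the SOCS box held fewer calls. Jak3, Jak2, Stat5a, Stat2 and Pias3 were named after their values were seen, because they were the called ones of their class. Of 4 JAK kinases, Jak3, which serves the interleukin 2 receptor, was higher in Treg than in TN (0.76, limma adjusted p = 0.0446), and Jak2 was higher in GFPKO than in Treg (0.83, adjusted p = 0.00993). Of 6 STAT factors, Stat5a was higher in Treg than in TN (0.91, adjusted p = 0.00585) and read 0.70 for GFPKO minus TN (adjusted p = 0.0834). Stat2 was higher in GFPKO than in TN (0.75, adjusted p = 0.0492). None of the 6 measured SOCS box partners was called in the 2 comparisons with TN, and Cul5, the cullin of the SOCS ligase, was higher in GFPKO than in Treg (1.15, adjusted p = 0.00654). Cul5 read 7.31, 7.10 and 6.57 in GFPKO, 6.43, 5.97, 5.47, 5.34 and 6.01 in Treg, and 5.66, 6.28 and 6.21 in TN. Of 13 other inhibitors of the pathway, Pias3 alone was called, higher in Treg than in TN (0.81, adjusted p = 0.00797).

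**Figure D5:**
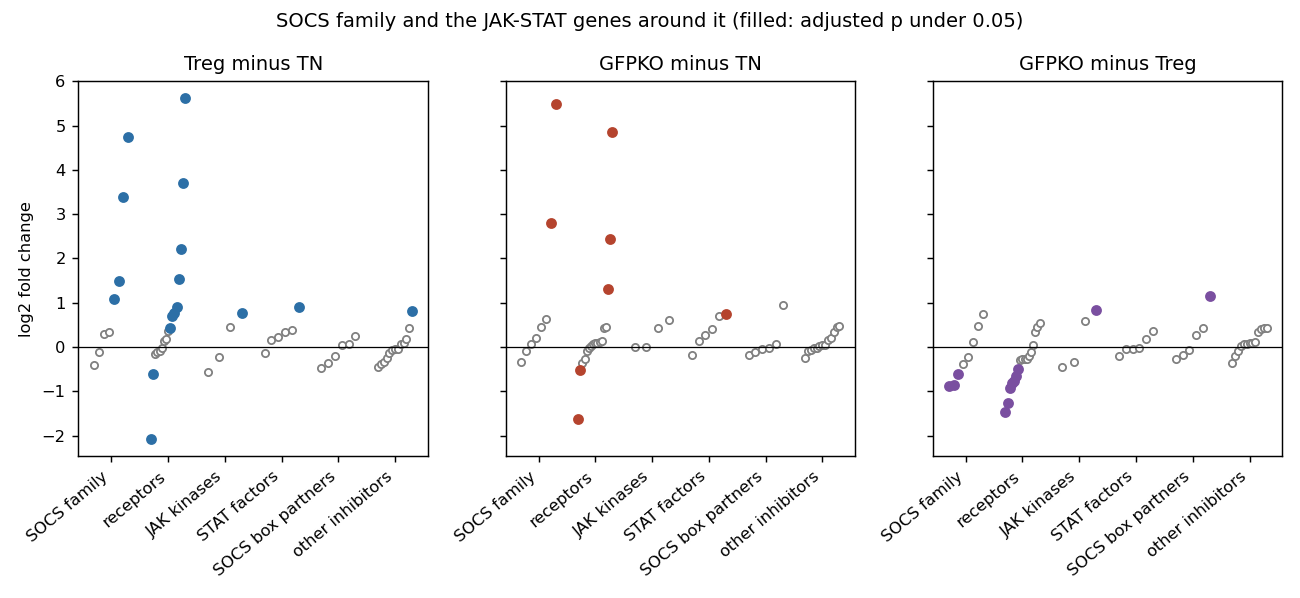
Log2 fold change (y axis) of the 8 SOCS genes and the 46 JAK-STAT genes by class (x axis), with a panel for each comparison and filled points where the adjusted p was under 0.05. Receptors and SOCS genes hold the widest spread, up to 5.62 and 5.48, and SOCS box partners stay between -0.47 and 1.15.

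Textbook targets of the STAT factors that induce the SOCS genes were read beside them. Of 10 STAT5 targets other than Cish and Socs2, 4 were higher and 2 lower in Treg than in TN, against 6.54% and 3.42% of all genes. In GFPKO 3 were higher and none lower than in TN, against 2.64% and 3.02% of all genes. Lta, which encodes lymphotoxin, was higher in Treg (1.84) and GFPKO (1.39) than in TN. The kinase gene Pim1 and the survival gene Bcl2l1 were higher in Treg than in TN (1.49 and 1.24) and lower in GFPKO than in Treg (-1.13 and -1.01). For GFPKO minus TN, Pim1 read 0.36 (adjusted p = 0.197) and Bcl2l1 0.23 (adjusted p = 0.671). Bcl2, a survival gene, was higher in GFPKO than in TN (1.18), and Id2, an inhibitor of helix-loop-helix factors, was lower in Treg than in TN (-1.47) and higher in GFPKO than in Treg (1.51).

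STAT3 targets other than Socs3 were called higher in Treg than in TN for 4 of 8 and lower for 1, against 6.54% and 3.42% of all genes. They were called higher in GFPKO than in TN for 2 of 8 and lower for none, against 2.64% and 3.02%. Maf, a transcription factor of helper T cells, was higher in Treg (1.60) and GFPKO (2.90) than in TN, and Il17a, the Th17 cytokine, was higher in GFPKO than in TN (2.46). Batf was lower in GFPKO than in Treg (-1.11) and Il21, an interleukin, was higher in GFPKO than in Treg (2.04), where Treg was at background.

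Markers of other cells were read beside the members. The mean log2 value of 11 myeloid and dendritic markers was 4.09 to 4.26 in GFPKO, 4.24 to 4.54 in Treg and 4.83 to 5.35 in TN. It was highest in TN, where Cish, Socs2 and Socs1 had their lowest group mean, and 6 of the 11 markers were called lower than TN in GFPKO and 6 in Treg. Lyz2, the lysozyme gene, went the other way, with 6.57 in GFPKO, 7.02 in Treg and 5.58 in TN, and was called higher in Treg than in TN (1.43, limma adjusted p = 0.0406). Itgam and Cd14, defining myeloid markers, were below background in all groups, while Tyrobp averaged 4.58 in GFPKO, 4.56 in Treg and 7.87 in TN. The 4 NK markers averaged 4.10 to 4.58 in GFPKO, 4.69 to 4.92 in Treg and 5.77 to 6.25 in TN, with Ncr1 below background throughout. The higher level in TN came from Klrd1, which averaged 3.96 in GFPKO, 3.15 in Treg and 8.83 in TN. Nkg7 averaged 6.40 in GFPKO, 7.99 in Treg and 7.27 in TN, and Gzma 4.27 in GFPKO, 5.01 in Treg and 5.07 in TN. The 5 B cell markers averaged 3.88 to 4.39 in GFPKO, 4.70 to 4.88 in Treg and 4.27 to 4.45 in TN. The group means of Cd79a, Ms4a1 and Blk were below background throughout, while Cd79b averaged 6.01 in GFPKO, 7.63 in Treg and 4.36 in TN. Cd22 was above background in every group and ran differently, with 4.87 in GFPKO, 5.82 in Treg and 5.89 in TN. The 2 CD8 markers averaged 5.70 to 6.26 in GFPKO, 5.91 to 6.36 in Treg and 5.95 to 6.37 in TN. All 4 erythroid and platelet markers were below background in every group. The 3 naive T cell markers Ccr7, Lef1 and Dapl1 averaged 10.36 to 10.63 in GFPKO, 9.48 to 9.61 in Treg and 11.47 to 11.49 in TN. The part of such other cells in the SOCS results was not tested.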

How the data were processed

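The deposited values are log2 values made by the authors with RMA, per the submitters' processing notes, and the version was not given in the sources used here. Their range, 1.54 to 14.65, shows the log scale. RNA was extracted with Trizol and labelled with biotin by the Affymetrix protocol, per the labels. Of 45101 probe sets, 34945 had 1 gene symbol in the platform annotation, and the 64 controls, 932 probe sets with several symbols and 9160 with none were left out. No 2 arrays held identical values. All 8 members kept their symbol in RefSeq by Entrez ID.

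The 11 arrays entered 1 model of group means in limma 3.58.1 (R 4.3.3). Variances were moderated by empirical Bayes, with no covariate and no filter on dim genes. Tests were two-sided and adjusted by the Benjamini-Hochberg method over the 18193 genes (over 34945 probe sets where probe sets are named). The fit was also run on simulated data, with normal noise and 1 spread per gene shared by all groups. That simulation does not cover unequal spread between groups. In the arrays the median SD per gene was 0.237 in GFPKO, 0.174 in Treg and 0.147 in TN. The number of arrays limits the precision. Alternatives were a fit of 2 groups, probe sets as rows, means over probe sets, a filter on dim genes, median centring, a trended robust variance, array weights, an actin covariate, a replicate block and leaving out each array.

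All members were named. Listed genes were named where called at an absolute log2 fold change of at least 1, with exceptions stated. The members and lists were chosen with earlier results of these data known, and the list of STAT targets and JAK-STAT genes comes from general knowledge.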

Additional observations from a re-analysis of the deposited data

Results flagged for a closer look

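Among the 24 SOCS probe sets, 3 had a Treg array that stood apart from the other 4 by more than Dixon's critical gap of 0.71 of the range, where chance alone flags about 1 in 20 groups. For the second brightest Socs2 probe set, Treg replicate 1 read 8.52, next to 8.06 for the nearest array (gap 0.773 of the range). For a Socs4 probe set other than the brightest, Treg replicate 3 read 5.06, next to 4.83 (0.812). For a Socs6 probe set below background, Treg replicate 3 read 2.79, next to 3.40 (0.768).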

How the results depend on the processing

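The calls of Cish and Socs2 in both comparisons with TN, of Socs1 and Socs5 for Treg minus TN and of Socs5 for GFPKO minus Treg held in all 20 alternatives. The 20 are not separate checks. Leaving out an array of the group not compared could not change a fold change, nor could averaging probe sets for Cish and Socs1, which have only 1. Over all members and comparisons 456 of the alternative values kept their side of the threshold, 16 lost a call, 8 gained one, and no called difference turned round. For GFPKO minus Treg the count of called members was 3, and 1 with only the 2 groups compared, 1 with the actin covariate, 5 with array weights, and 1 to 4 when an array was left out (1 without GFPKO replicate 1 or Treg replicate 4 or 5). For GFPKO minus TN it was 2, and 4 with array weights, which added Socs1 (adjusted p = 0.0165) and Socs3 (adjusted p = 0.0041). Weights were 0.25, 5.11 and 0.31 for GFPKO replicates 1 to 3, so that fit rests mainly on 1 GFPKO array.

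The JAK-STAT count was 13 for Treg minus TN and 20 with only the 2 groups. It was 6 for GFPKO minus TN and 16 with array weights, and 9 for GFPKO minus Treg, 20 with array weights and 8 to 17 when an array was left out (17 without GFPKO replicate 3). Over all genes, Treg minus TN gave 1813 calls and 3223 with array weights. GFPKO minus TN gave 1029, 562 with only the 2 groups, 5051 with array weights, 570 with the actin covariate and 644 to 1868 when an array was left out (644 without TN replicate 1, 1868 without GFPKO replicate 3). GFPKO minus Treg gave 1716, 6756 with array weights, 811 with the actin covariate and 1134 to 3421 when an array was left out (1134 without GFPKO replicate 1, 3421 without GFPKO replicate 3). The cause of these changes in the counts was not tested.

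Whether replicate numbers pair the arrays could not be settled, as each comparison had only 3 shared numbers. The correlation of deviations of same-numbered arrays ran from -0.22 to 0.51. For GFPKO minus TN, 2 of 3 arrays in each group correlated best with their own number. For GFPKO minus Treg it was 1 of 3 in each group, and for Treg minus TN 1 Treg array and 0 TN arrays. With a replicate block, GFPKO minus Treg gave 1 called member (Socs5) and 1049 genes, and the calls of Cish (-0.47, adjusted p = 0.131) and Socs1 (-0.60, adjusted p = 0.201) were lost.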
